A study of Mus musculus with 2 samples.

Results

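The 9 genes described here encode the folate importer of the proximal gut and the enzymes that make serine and pass its carbon through folate. They were taken as the rows whose gene symbol was Slc46a1, Shmt1, Mthfd1, Shmt2, Mthfd2, Mthfd1l, Phgdh, Psat1 or Psph, and all 9 were found once among the 31053 counted genes of both libraries. The material was cells of the proximal small intestine of 2 mice of the genotype VilCreER Apc fl/fl, in which tamoxifen had been given as 2 doses of 2 mg 24 h apart and tissue was taken on day 4. Both mice form a single group, APC, with no control genotype and no untreated animal, so every comparison below is between cell classes of the same animals. The Villin promoter drives the recombinase in intestinal epithelium, so leukocytes and pancreatic cells in the same libraries are not its target. Age and sex are not given in the sources used here. All cells of the digested tissue that excluded DAPI, a stain of dead cells, went into single-cell 3′ libraries, so each value is a number of molecules (UMIs, unique molecular identifiers) tagged at the 3′ end of a transcript.

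The libraries held 9645 and 8800 barcodes with 85670711 and 38716743 UMIs, of which 7941 and 6957 cells were kept (more than 100 genes and 400 UMIs, with mitochondrial genes below 5% and haemoglobin genes below 10% of UMIs). The kept cells held 11603 UMIs of the 9 genes in mouse 1 and 5569 in mouse 2. The 2 libraries shared 16 barcodes. Cells were clustered without the genes of interest or their pathway and named from marker lists, with the suffix -like for names that rest on markers alone. Crypt-like cells (115 and 29 in mice 1 and 2) met 14 of 16 crypt markers and were led by Olfm4, Kcne3 and Clca3b, and Mki67 was seen in 56.9% of them. Enterocyte-like cells numbered 579 and 138 and plasma-like cells 2208 and 609. There were 3148 and 5289 T-cell- or innate-lymphoid-like (T/ILC-like), 435 and 97 B-cell-like and 865 and 628 myeloid-like cells. The T/ILC-like, B-cell-like and myeloid-like cells were also summed as other leukocytes, 4448 and 6014 cells. The rest were pancreatic-acinar-like (177 and 0) or left unnamed. The crypt-like class held 1769004 and 556073 UMIs in all. Apc itself was read at 57.1 and 70.1 CPM (counts per 1000000 UMIs of the class) in crypt-like cells and at 55.7 and 50.7 CPM in T/ILC-like cells, and a 3′ count outside the floxed part does not check the deletion.

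Cells place single carbon units on tetrahydrofolate and use them to build purines, thymidylate and methionine. Most of these units come from serine, which is cleaved to glycine by serine hydroxymethyltransferase, SHMT1 in the cytosol and SHMT2 in mitochondria. In mitochondria MTHFD2 oxidises the unit and MTHFD1L releases it as formate, which MTHFD1, a trifunctional cytosolic enzyme, loads onto folate again. Serine itself is taken up or made from a glycolytic intermediate by PHGDH, PSAT1 and PSPH in that order. SLC46A1, the proton-coupled folate transporter, brings dietary folate across the brush border of the duodenum and jejunum. Dividing cells are known to use the pathway heavily, and in the gut the dividing epithelium sits in the crypt.

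In GRCm38 with GENCODE M21 all 9 are protein-coding. Shmt1 (ENSMUSG00000020534) lies on the minus strand at chr11:60788104-60811718 and Mthfd1 (ENSMUSG00000021048) on the plus strand at chr12:76255298-76319803. The mitochondrial enzymes are Shmt2 (ENSMUSG00000025403, minus strand, chr10:127517123-127522444), Mthfd2 (ENSMUSG00000005667, minus strand, chr6:83305691-83325908) and Mthfd1l (ENSMUSG00000040675, plus strand, chr10:3973118-4167081). The serine enzymes are Phgdh (ENSMUSG00000053398, minus strand, chr3:98313170-98339990), Psat1 (ENSMUSG00000024640, minus strand, chr19:15904678-15947337) and Psph (ENSMUSG00000029446, minus strand, chr5:129765558-129787449). Slc46a1 (ENSMUSG00000020829) is on the plus strand at chr11:78465697-78472059. The 3′ end of the Phgdh transcript matched 14 other annotated loci at 95% identity or more, 13 of them processed pseudogenes and the closest Gm7901 at 98.71% over 465 bases. Shmt2 matched the pseudogene Gm15544 at 96.154% over 130 bases, and the other 7 genes had no such match. None of these copies was among the counted genes, so how reads shared with them were treated is uncertain for Phgdh and Shmt2.

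The promoters of 4 genes are shown because their transcripts marked different classes: Phgdh, Shmt2 and Mthfd2 were higher in crypt-like cells than in enterocyte-like cells, and Slc46a1 was the gene with the opposite pattern. The sequences are the part of the 250 bases before the RefSeq start (GRCm38.p6) that overlaps no annotated exon, 5′ to 3′ on the gene's strand, with CCAAT and GGGCGG matches on either strand in capitals. The Mthfd2 window lies inside the annotated span of that gene, in no exon, and the other 3 lie just outside the gene.
Phgdh, chr3:98339991-98340219, minus strand: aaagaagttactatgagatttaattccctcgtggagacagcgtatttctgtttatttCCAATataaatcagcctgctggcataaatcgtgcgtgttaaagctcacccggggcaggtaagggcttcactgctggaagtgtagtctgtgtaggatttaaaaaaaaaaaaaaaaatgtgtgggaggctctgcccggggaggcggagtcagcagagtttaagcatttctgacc
Shmt2, chr10:127522445-127522694, minus strand: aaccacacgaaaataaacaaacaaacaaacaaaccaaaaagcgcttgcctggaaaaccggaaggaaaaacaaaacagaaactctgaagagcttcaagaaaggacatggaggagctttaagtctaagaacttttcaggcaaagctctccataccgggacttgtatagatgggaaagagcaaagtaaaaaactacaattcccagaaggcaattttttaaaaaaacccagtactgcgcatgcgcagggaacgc
Mthfd2, chr6:83317607-83317854, minus strand: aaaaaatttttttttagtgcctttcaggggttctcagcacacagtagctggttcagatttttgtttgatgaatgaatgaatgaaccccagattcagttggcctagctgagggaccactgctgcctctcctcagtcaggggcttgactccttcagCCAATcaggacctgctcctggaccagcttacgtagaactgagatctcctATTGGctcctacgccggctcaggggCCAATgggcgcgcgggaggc
Slc46a1, chr11:78465451-78465696, plus strand: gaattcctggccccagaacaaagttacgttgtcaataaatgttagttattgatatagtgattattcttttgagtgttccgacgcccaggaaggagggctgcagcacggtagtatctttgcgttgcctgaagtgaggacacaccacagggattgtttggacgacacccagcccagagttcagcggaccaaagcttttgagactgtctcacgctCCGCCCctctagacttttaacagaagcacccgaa

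RefSeq promoters were found for all 9 genes, 10 windows in all because Psat1 has a second start. Over the full 250 bases and on both strands, CCAAT was present in 6 of the 10 windows (Mthfd1, Mthfd2, Phgdh, Psat1, Psph and Shmt1), against 33.8% of 32544 mouse promoters. GGGCGG, the GC box, was present in 6 windows (Mthfd1, Mthfd1l, Psat1, Psph, Shmt1 and Slc46a1) against 33.0% of all. TTTNNCGC, an E2F-type word, was found in Psph alone and in 4.31% of all promoters. CACGTG (6.03% of all) and TGATGNAA, a word bound by ATF4 with a CEBP partner (3.40%), were in none of the 10 windows, which says only that these letters are not in these bases.

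Shmt1, the cytosolic hydroxymethyltransferase, was concentrated in crypt-like cells: 50.6% of its 322 UMIs were theirs. Mouse 1 gave 69.5 CPM there (57.8 to 83.0, exact Poisson interval at 95%) and mouse 2 gave 71.9 CPM (51.4 to 98.0), a mean of 70.7 ± 1.70 CPM (SD, n = 2). Enterocyte-like cells had 2.38 and 9.22 CPM, on 10 and 6 UMIs, of which 9 and 5 were in their sub-cluster E5. In no leukocyte class did either mouse exceed the 2.88 CPM of myeloid-like cells, and plasma-like cells were lowest at 0.545 and 0.242 CPM. The crypt intervals lay far above those of every other class in both mice, while the order of enterocyte-like, myeloid-like, B-cell-like and T/ILC-like cells was not resolved, since the ranges over the mice overlapped between neighbours. All intervals cover counting error only.

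Mthfd1, which joins formate to folate in the cytosol, had the same leading class with a broader base. Crypt-like cells had 101 CPM in mouse 1 (86.4 to 117) and 79.1 CPM in mouse 2 (57.5 to 106), 89.9 ± 15.2 CPM. Myeloid-like (17.9 and 23.9 CPM), enterocyte-like (19.5 and 19.97 CPM) and T/ILC-like cells (15.3 and 16.6 CPM) sat together some way below, and the first pair of these overlapped. B-cell-like cells had 9.63 and 9.34 CPM. Plasma-like cells had 1.78 and 2.34 CPM, the lowest of the 6 classes in both mice.

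Among the mitochondrial enzymes, Shmt2 was read at 53.7 CPM (43.4 to 65.6) and 68.3 CPM (48.4 to 93.8) in crypt-like cells. The T, myeloid and plasma classes were close to each other, T/ILC-like at 18.8 and 19.4 CPM, myeloid-like at 14.8 and 20.2 CPM and plasma-like at 18.01 and 16.4 CPM, and enterocyte-like cells had only 9 and 2 UMIs (2.14 and 3.07 CPM). Mthfd2 was less exclusive. Its crypt levels of 39.0 CPM (30.3 to 49.4) and 66.5 CPM (46.8 to 91.7) overlapped those of T/ILC-like cells, 32.6 and 42.3 CPM. Mthfd1l, the formate-releasing enzyme, had its highest level in T/ILC-like cells, at 21.9 and 28.7 CPM. Crypt-like cells followed at 18.7 and 12.6 CPM, on 33 and 7 UMIs, and B-cell-like cells were lower, at a mean of 9.30 CPM. Other leukocytes held 79.0% of the 1024 UMIs of Mthfd1l. Both of these enzymes were scarce in enterocyte-like cells, where Mthfd2 had 5.70 and 7.68 CPM and Mthfd1l 11 UMIs in mouse 1 and 0 of 650935 in mouse 2.

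Phgdh, which commits carbon to serine, was the most abundant of the 9 with 5952 UMIs, 4546 in mouse 1 and 1406 in mouse 2. Over both mice together 65.0% of them came from plasma-like cells. That class held 61.1% of all kept UMIs in mouse 1 and 35.0% in mouse 2, where T/ILC-like cells held 42.0%. As a level per UMI it was highest in crypt-like cells, at 126 CPM in mouse 1 (110 to 144) and 142 CPM in mouse 2 (112 to 177). Plasma-like cells followed at 65.9 and 49.0 CPM, B-cell-like cells at 49.6 and 37.3 CPM and T/ILC-like cells at 34.1 and 30.5 CPM. Myeloid-like cells had 13.7 and 14.2 CPM and enterocyte-like cells 4.04 and 3.07 CPM, and of these neighbours only the plasma-like and B-cell-like levels overlapped. That overlap rested on B-cell-like cluster 19 of mouse 1, 45 cells with 77 UMIs of Phgdh (64.2 CPM). The larger B-cell-like cluster 9 had 38.0 and 29.4 CPM, under both plasma-like values. Immunoglobulin transcripts took 67.5% and 68.0% of plasma-like UMIs, against 1.90% and 0.1003% in crypt-like cells, so CPM places every other plasma-like transcript low.

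The next 2 steps of serine synthesis did not share that order. Psat1, the transaminase, had 40.7 and 28.8 CPM in crypt-like cells, 12.8 and 14.6 CPM in T/ILC-like cells, 8.60 and 11.1 CPM in myeloid-like cells and only 2.60 and 2.74 CPM in plasma-like cells. The ranges over the mice did not overlap between neighbours in the order of its 6 classes, but these ranges leave out counting error. In mouse 2 Psat1 was seen in 1 of 97 B-cell-like cells and 0 of 138 enterocyte-like cells. The order of B-cell-like cells (mean 3.41 CPM) and plasma-like cells was therefore not resolved. Psph, the phosphatase that releases serine, varied least: 28.3 and 30.3 CPM in T/ILC-like cells, 27.7 and 28.8 CPM in crypt-like cells, 21.6 and 18.1 CPM in myeloid-like cells and 17.1 and 19.2 CPM in plasma-like cells. Enterocyte-like cells were lowest at 9.03 and 4.61 CPM, and B-cell-like cells spread from 9.34 to 18.5 CPM.

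Slc46a1 had the opposite pattern in the epithelium. Enterocyte-like cells held 72.4% of its 693 UMIs, at 111 CPM in mouse 1 (101 to 121) and 55.3 CPM in mouse 2 (38.7 to 76.6). Crypt-like cells held 1 UMI in mouse 1 (0.565 CPM) and 0 of 556073 in mouse 2 (exact upper limit 6.63 CPM). Every leukocyte class was at or under 2.96 CPM. The enterocyte-like level differed between the mice beyond their counting intervals and was above every other class in both. The sub-clusters of this class were uneven. E1 (232 and 31 cells) had 198 and 97.6 CPM, on 362 and 20 UMIs. E5 had 49.6 and 75.3 CPM, E2 37.8 and 14.8 CPM and E4 49.1 and 11.9 CPM. In mouse 2 the values of E2 and E4 rest on 3 and 1 UMIs. The part of this make-up in the difference between the mice was not tested.

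**Figure D1:**
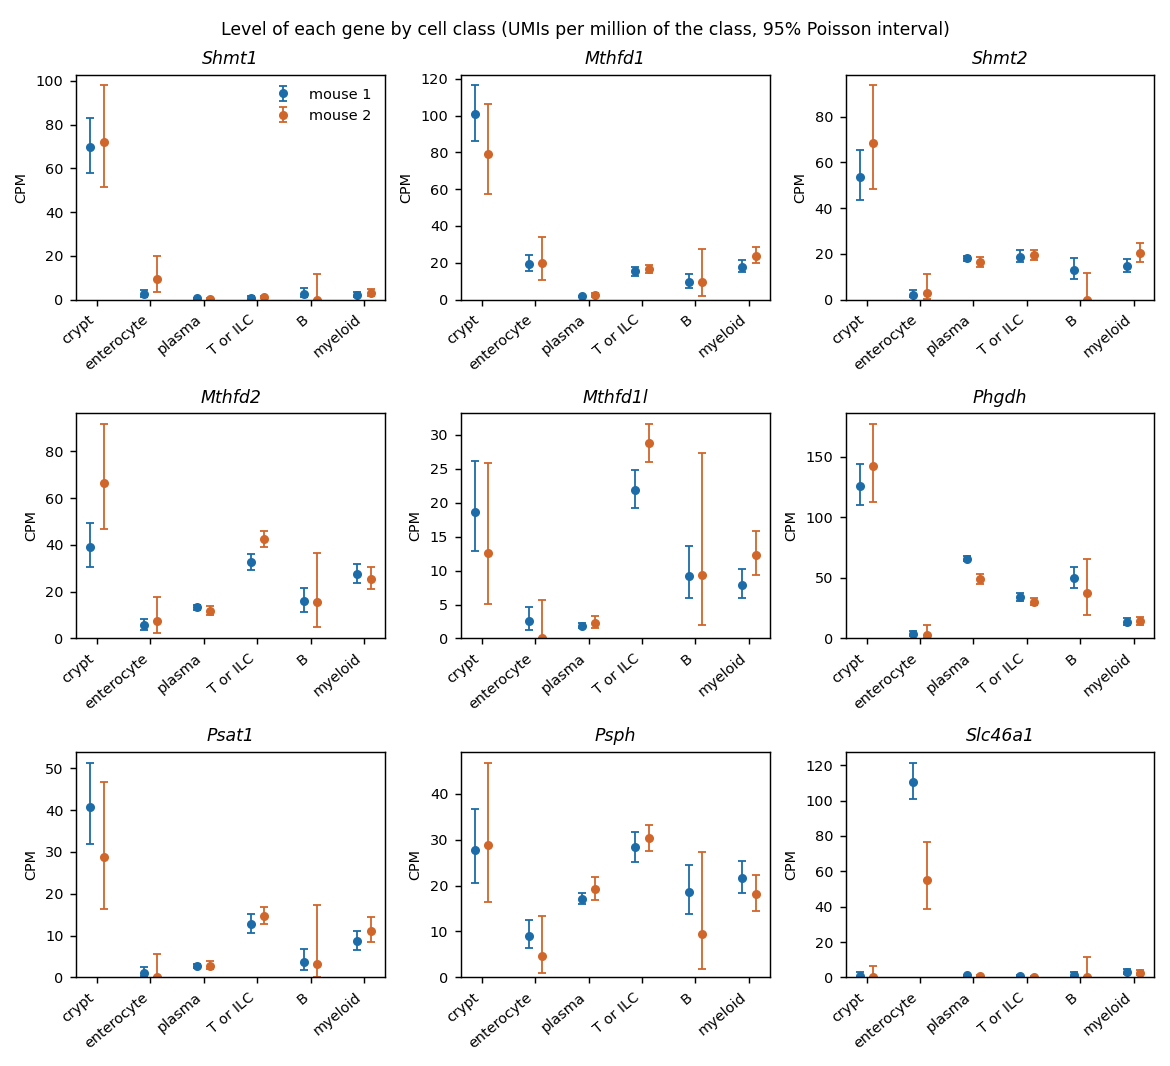
Level of each of the 9 genes (vertical axis, CPM) in 6 cell classes, with 1 point per mouse and exact Poisson 95% intervals. Crypt-like cells lead for Shmt1, Mthfd1, Shmt2, Phgdh and Psat1, T/ILC-like cells (T or ILC) lead for Mthfd1l, and enterocyte-like cells lead for Slc46a1 at 111 and 55.3 CPM.

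Summed over the 9 genes, crypt-like cells gave 477 and 498 CPM, T/ILC-like cells 165 and 184 CPM, enterocyte-like cells 157 and 103 CPM and plasma-like cells 122 and 105 CPM. Unnamed cluster 18, of dividing cells, gave 483 and 374 CPM, and the cycling other leukocytes defined below gave 193 and 264 CPM. The steps were divided very differently. Crypt-like cells spread their UMIs over the cytosolic enzymes (35.7% and 30.3%), the mitochondrial enzymes (23.4% and 29.6%) and serine synthesis (40.8% and 40.1%). Plasma-like cells gave 70.1% and 67.7% to serine synthesis and only 1.90% and 2.46% to the cytosolic enzymes. In enterocyte-like cells uptake took 70.5% and 53.7%, and in other leukocytes the mitochondrial enzymes (42.4% and 48.2%) and serine synthesis (44.6% and 39.7%) shared most of the total. These shares are of UMIs and are free of the scaling of each class.

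The balance of mitochondrial and cytosolic steps differed between crypt-like cells and leukocytes. Of the UMIs of both hydroxymethyltransferases, Shmt2 made up 43.6% in crypt-like cells of mouse 1 (95% Clopper-Pearson interval 36.9 to 50.4) and 48.7% in mouse 2 (37.2 to 60.3). The plasma-like share was 97.1% (95.8 to 98.1) and 98.5% (95.8 to 99.7), and in T/ILC-like cells 95.8% and 95.1%. Myeloid-like cells were between, at 86.8% and 87.5%, and B-cell-like cells of mouse 1 had 83.3%. Enterocyte-like cells gave 9 of 19 UMIs and 2 of 8, too few to place them beside or below crypt-like cells.

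Among the folate-interconverting enzymes, Mthfd2 with Mthfd1l made up 36.4% (30.8 to 42.4) of their UMIs together with Mthfd1 in crypt-like cells of mouse 1 and 44 of 88 UMIs (39.1% to 60.9%) in those of mouse 2. Enterocyte-like cells had 29.9% and 27.8%. Plasma-like cells had 89.5% (87.2 to 91.5) and 85.8% (80.2 to 90.3), T/ILC-like cells 78.0% and 81.1%, and myeloid-like cells 66.5% (61.5 to 71.2) and 61.3% (55.6 to 66.9), the last overlapping the crypt-like interval of the same mouse. As point values, the plasma-like, T/ILC-like and myeloid-like shares were above both epithelial shares in each mouse. With 2 mice no exact permutation test of such shares between classes can pass 0.05, and none was made.

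**Figure D2:**
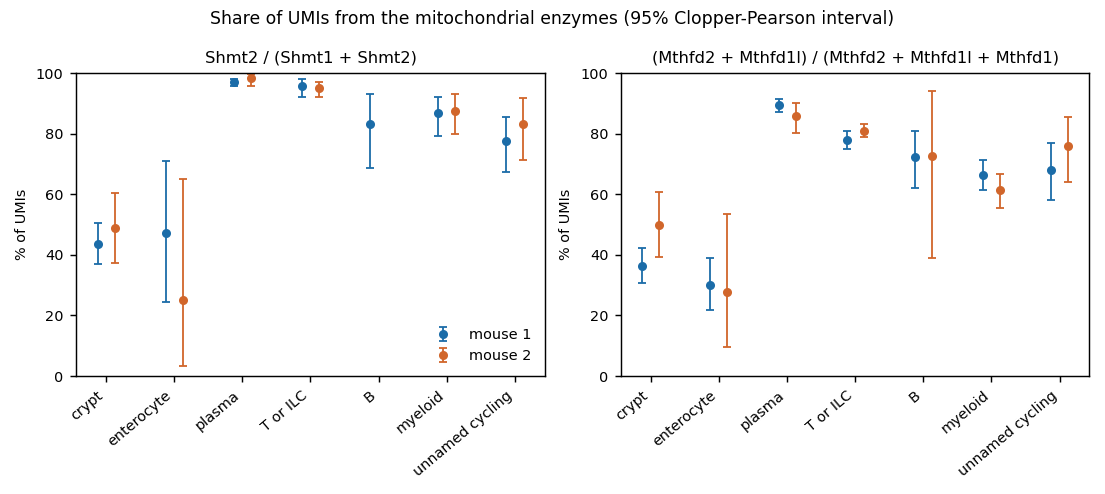
Share of UMIs (vertical axis, %) from the mitochondrial enzyme or enzymes of each step, by class, with 1 point per mouse and exact 95% Clopper-Pearson intervals; the class named unnamed cycling is cluster 18. For Shmt2 the crypt-like points sit at 43.6% and 48.7% and the plasma-like points at 97.1% and 98.5%, and B-cell-like cells of mouse 2 have no point because neither transcript was seen.

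The comparisons between classes were made on UMIs summed per mouse and class, with edgeR's quasi-likelihood test over all genes and Benjamini-Hochberg adjustment at 0.05; a log2 fold change is given with its SE. They share the same 2 mice and often the same sums, so the comparisons are not independent of each other. Their p-values rest on the spread between 2 animals. Markers of other classes were carried by every class: plasma markers summed to 18387 and 1081 CPM in crypt-like cells and to 639336 and 671028 CPM in the plasma-like class, and enterocyte markers to 581 and 2611 CPM against 39791 and 94100 CPM in the enterocyte-like class. How much of Phgdh, Shmt2 and Slc46a1 such RNA could carry is given with the shares of cells.

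Crypt-like against enterocyte-like cells, the comparison of dividing with differentiated epithelium, gave the most complete difference. All 9 genes passed the test, 8 higher in crypt-like cells and 1, Slc46a1, lower, where 35.2% of 13175 genes passed in either direction, 18.7% higher and 16.5% lower. The 3 serine enzymes were led by Psat1, with a log2 fold change of 5.30 ± 0.53 (adjusted p = 0.000226, edgeR), from 72 and 16 UMIs against 4 and 0. Phgdh followed at 4.95 ± 0.37 (adjusted p = 7.64e-05, edgeR), and Psph changed least at 1.67 ± 0.31 (adjusted p = 0.00334, edgeR). Of the mitochondrial enzymes Shmt2 was 4.53 ± 0.35 higher, Mthfd2 2.86 ± 0.37 and Mthfd1l 2.78 ± 0.57 on the log2 scale. The cytosolic pair was higher by 4.07 ± 0.56 for Shmt1 and 2.05 ± 0.25 for Mthfd1. These fold changes are fitted values that depend on a small prior count where a sum was 0. For Slc46a1 the fitted value was -7.77 ± 0.82 (adjusted p = 0.000274, edgeR). The ratio of its CPM in mouse 1 was 196 (exact interval 35.0 to 7755) on 466 against 1 UMI. Each mouse alone gave the same direction for all 9 genes, with Shmt1 at 4.71 in mouse 1 and 2.75 in mouse 2. Over all genes tested the median was 0.0428.

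Crypt-like cells against other leukocytes gave 5 higher and 0 lower of 9, where 58.7% of genes passed, 24.9% higher and 33.9% lower, around a median of -0.419. Both cytosolic enzymes were higher, Shmt1 by 5.60 ± 0.47 (adjusted p = 3.26e-05, edgeR) and Mthfd1 by 2.50 ± 0.23 (adjusted p = 4.14e-05, edgeR). Of the mitochondrial enzymes only Shmt2 passed, at 1.80 ± 0.24. Mthfd2 was at 0.67 ± 0.29 (adjusted p = 0.0713, edgeR), and passed in 3 alternatives: at 0.64 with the mouse as a block (adjusted p = 0.0461), at 0.80 with immunoglobulin genes left out (adjusted p = 0.0224) and at 0.87 against myeloid-like cells alone (adjusted p = 0.0297). Mthfd1l was at -0.19 ± 0.41 with opposite signs in the 2 mice. Phgdh was higher by 2.31 ± 0.28 and Psat1 by 1.67 ± 0.32, and Psph, at 0.18 ± 0.25, did not pass. Slc46a1 was at -1.38 ± 1.45 (adjusted p = 0.439, edgeR), with 1 and 0 UMIs in crypt-like cells and 31 and 17 UMIs in other leukocytes.

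**Figure D3:**
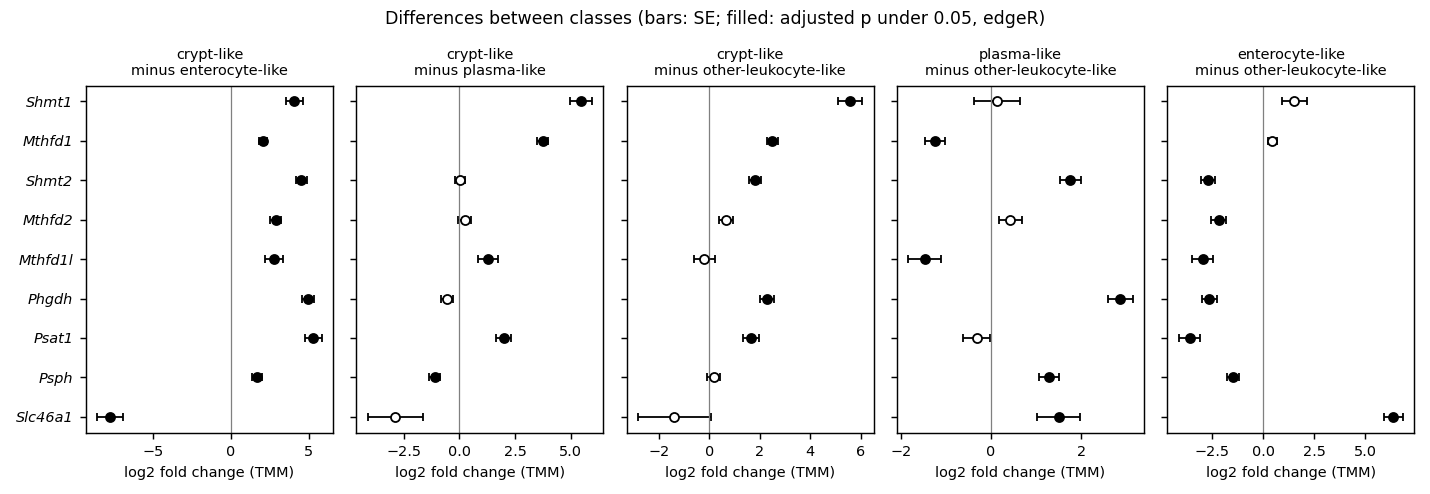
Log2 fold change of each gene (horizontal axis, TMM scaling, edgeR) in 5 comparisons of cell classes, bars showing the SE and filled points an adjusted p under 0.05. In the first comparison 8 points lie to the right of 0 and Slc46a1 lies at -7.77, and in the fourth Phgdh lies at 2.87 and Mthfd1 at -1.25.

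Comparisons with plasma-like cells depend on how the sums are scaled, since immunoglobulin takes most of their UMIs. TMM scaling, which sets the bulk of genes level, gave plasma-like sums factors of 0.376 and 0.447 and crypt-like sums 1.35 and 1.42. Under it, crypt-like cells had 4 genes higher and 1 lower than plasma-like cells, where 54.0% of genes passed, 25.4% higher and 28.6% lower, with a median of -0.214. With total UMIs as the only scaling 64.5% passed, 55.1% higher and 9.33% lower, around a median of 1.51. The cytosolic enzymes were higher in crypt-like cells under both, Shmt1 by 5.46 ± 0.50 (adjusted p = 4.77e-05, edgeR, TMM) and Mthfd1 by 3.74 ± 0.25 (adjusted p = 1.62e-05). Psat1 was higher by 1.99 ± 0.33 (adjusted p = 0.000963, edgeR) and Mthfd1l by 1.28 ± 0.44 (adjusted p = 0.0332), the latter at 0.0549 when clusters were made at resolution 0.4.

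For Psph and Phgdh the direction itself depended on the scaling. Psph was lower in crypt-like cells by TMM, -1.11 ± 0.25 (adjusted p = 0.00536, edgeR), and at 0.64 by total UMIs (adjusted p = 0.0723). Phgdh was at -0.56 ± 0.27 (adjusted p = 0.108, edgeR), at -0.55 with adjusted p = 0.0310 with the mouse as a block, and at 1.22 by total UMIs (adjusted p = 0.000846). Relative to the median of all genes it was at -0.34 by TMM and -0.30 by total UMIs, so the scalings differed mainly in where 0 lies. In a fit of the compared classes alone it was at -0.67 (adjusted p = 0.0396, edgeR). Shmt2, at 0.04 ± 0.24, and Mthfd2, at 0.24 ± 0.29, did not pass by TMM (adjusted p = 0.910 and 0.975), and by total UMIs they were at 1.80 (adjusted p = 0.000161) and 2.01 (adjusted p = 0.000337). For Mthfd2 by TMM edgeR raised the p to its Poisson bound, and the mice had opposite signs. Slc46a1 was at -2.88 ± 1.25 (adjusted p = 0.0795, edgeR), and at adjusted p = 0.0113 with the block.

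Within the immune compartment, plasma-like cells had 4 genes higher and 2 lower than other leukocytes by TMM, where 39.6% of genes passed, 15.6% higher and 24.1% lower, around a median of -0.184. Phgdh was the furthest, 2.87 ± 0.28 higher (adjusted p = 0.000120, edgeR), and it was also higher by total UMIs (1.04, adjusted p = 0.00123), where 84.8% of genes passed but only 3.76% higher and 81.0% lower, around a median of -1.99. Shmt2 was 1.76 ± 0.23 higher (adjusted p = 0.000439, edgeR), Psph 1.29 ± 0.22 higher (adjusted p = 0.00192) and Slc46a1 1.5 ± 0.48 higher (adjusted p = 0.0354). By total UMIs these 3 were at -0.06, -0.52 and -0.33, none past the threshold. Relative to the median of all genes Shmt2 was at 1.95 by TMM and 1.93 by total UMIs, and Psph at 1.48 by both. Slc46a1 also missed the threshold in 3 other settings, adjusted p = 0.0589 to 0.697 in edgeR.

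Mthfd1 was lower in plasma-like cells than in other leukocytes, -1.25 ± 0.23 (adjusted p = 0.00254, edgeR), and so was Mthfd1l, -1.47 ± 0.37 (adjusted p = 0.0120). Both were also lower by total UMIs. With myeloid-like cells alone as the comparison group Mthfd1l was at -0.59 (adjusted p = 0.228). Mthfd2 (0.43 ± 0.26), Psat1 (-0.32 ± 0.30) and Shmt1 (0.14 ± 0.51) did not pass by TMM (Mthfd2 did in a fit of the compared classes alone, adjusted p = 0.0467, edgeR), and by total UMIs they were at -1.40, -2.15 and -1.71, past the threshold. The first and last steps of serine synthesis were thus higher in plasma-like cells by TMM and the middle one was not. Whether Psat1 differs from Phgdh in this was not tested.

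**Figure D4:**
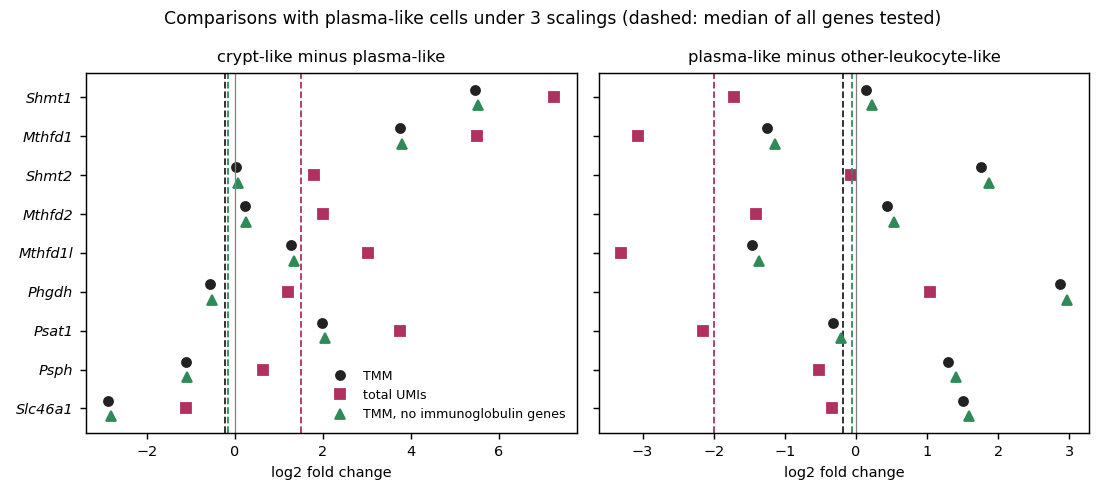
Log2 fold change (horizontal axis) of the 9 genes in the comparisons with plasma-like cells under TMM, under total UMIs and under TMM without immunoglobulin genes, with dashed lines at the median of all genes tested. The total-UMI points and their dashed line move together, to a median of 1.51 on the left and -1.99 on the right.

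Enterocyte-like cells differed from other leukocytes mainly by lower values. Of 9 genes 1 was higher and 6 were lower, where 66.7% of all genes passed, 24.7% higher and 42.0% lower, around a median of -0.664. Slc46a1 was 6.39 ± 0.48 higher (adjusted p = 1.04e-05, edgeR). All 3 mitochondrial enzymes were lower, Mthfd1l at -2.96 ± 0.52, Shmt2 at -2.73 ± 0.35 and Mthfd2 at -2.19 ± 0.35, and so were the serine enzymes, with Psat1 at -3.62 ± 0.54, Phgdh at -2.65 ± 0.36 and Psph at -1.48 ± 0.28. Mouse 2 had 0 UMIs of Mthfd1l and Psat1 in enterocyte-like cells, so the fitted sizes for this pair depend on a small prior count, and in mouse 2 alone they were -8.51 and -7.66. The cytosolic enzymes did not follow. Mthfd1 was at 0.45 ± 0.24 (adjusted p = 0.122, edgeR) and Shmt1 at 1.53 ± 0.62 (adjusted p = 0.0528), with adjusted p = 0.0487 under the block and 0.00758 in DESeq2. With immunoglobulin genes left out both passed, Mthfd1 at 0.85 (adjusted p = 0.0176, edgeR) and Shmt1 at 1.93 (adjusted p = 0.0165). Enterocyte-like sub-cluster E5 (77 and 20 cells), which also met 8 crypt markers, held 9 and 5 of the Shmt1 UMIs. Sub-clusters E1, E2 and E4 held 1 or 0 in each mouse. For Mthfd1, E5 had 38.1 and 37.7 CPM, against 7.01 to 16.0 CPM in E1, E2 and E4 of mouse 1 and 0 to 29.6 CPM in those of mouse 2. No comparison without E5 was made.

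Because crypt-like cells divide, the genes were also compared between dividing and non-dividing leukocytes. A cell was called cycling if it held UMIs of at least 3 of 10 cell-cycle genes, and 96 of 115 and 29 of 29 crypt-like cells met this, against 66 and 54 other leukocytes. Of these leukocytes 59 and 47 were myeloid-like, so cycling and cell class moved together. Their median depth was 14312 and 14207 UMIs against 3345 and 2622 in the non-cycling ones, and myeloid markers summed to 12599 and 15463 CPM against 6232 and 5911 CPM. Near the limit, 14 and 16 other leukocytes had exactly 3 of the genes and 68 and 47 had 2. The cycling list summed to 1832 and 2172 CPM in crypt-like cells, 1285 and 1266 CPM in cycling other leukocytes and 38.6 and 39.9 CPM in the rest.

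Of 8 genes that could be tested, 2 were higher in cycling other leukocytes and 0 lower, where 22.7% of 9941 genes passed, 12.5% higher and 10.2% lower. Mthfd1 had 27.9 and 35.8 CPM in cycling and 14.8 and 17.6 CPM in non-cycling cells, a log2 fold change of 1.09 ± 0.27 (adjusted p = 0.0277, edgeR). Shmt2 had 24.0 and 46.8 CPM against 16.2 and 18.3 CPM, or 1.13 ± 0.32 (adjusted p = 0.0433). Among myeloid-like cells alone they were at 0.50 (adjusted p = 0.495) and 1.16 (adjusted p = 0.114), and the part of cell class and depth in these results was not tested. Shmt2 missed the threshold in 6 alternatives (adjusted p = 0.0577 to 0.158, edgeR) and Mthfd1 in 2 (0.0703 and 0.495). Shmt1 (2.02 ± 0.62), Psat1 (1.12 ± 0.34) and Mthfd2 (0.88 ± 0.26) missed the threshold at adjusted p = 0.0549, 0.0529 and 0.0511. With the mouse as a block Mthfd2 passed, at 0.90 (adjusted p = 0.0248, edgeR), and in DESeq2 at 0.95 (adjusted p = 0.0159). It also passed in further edgeR settings, at adjusted p = 0.0407 to 0.0492. Shmt1 passed in DESeq2 (adjusted p = 0.00313) and, in edgeR, without the filter on low counts (0.0373) and with 2 or 5 cycling genes required (0.0289 and 0.0320). Psat1 passed in DESeq2 (adjusted p = 0.0143). Phgdh had no direction common to both mice. It was at 0.26 ± 0.37 (adjusted p = 0.648, edgeR), lower in cycling cells of mouse 1 (18.3 against 29.7 CPM) and higher in those of mouse 2 (45.4 against 26.0 CPM). Psph was at 0.65 ± 0.24 and Mthfd1l at -0.76 ± 0.38, neither past the threshold, though Psph passed in DESeq2 (adjusted p = 0.0396). With the unnamed cluster 18 joined to the other leukocytes Shmt1, Psat1, Phgdh and Psph passed, at adjusted p = 0.00248, 0.00471, 0.000483 and 0.0117 (edgeR).

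Between cycling cells of both kinds, crypt-like cells had 3 genes higher and 0 lower of 8, where 45.2% of genes passed, 20.4% higher and 24.9% lower, around a median of -0.0809. Shmt1 was at 71.6 and 71.9 CPM in cycling crypt-like cells and at 7.69 and 1.38 CPM in cycling other leukocytes, a log2 fold change of 3.88 ± 0.50 (adjusted p = 0.00112, edgeR). Mthfd1 was higher by 1.58 ± 0.27 (adjusted p = 0.00353) and Phgdh by 2.15 ± 0.38 (adjusted p = 0.00408). Mthfd2 was at -0.00 ± 0.28 (adjusted p = 0.999), and Shmt2 was at 0.86 ± 0.33 (adjusted p = 0.0690, and 0.0431 with the block). The call for Phgdh changed when 1 unnamed cluster was joined to the other leukocytes. Cluster 18, 40 and 44 dividing cells left unnamed for want of class markers, had 214 and 158 CPM of Phgdh. With it counted among the other leukocytes the difference was 0.10 (adjusted p = 0.712, edgeR). Its plasma markers summed to 283429 and 244199 CPM, against 29669 and 17095 CPM in cycling other leukocytes, a group that leaves out plasma-like cells. Whether cluster 18 belongs to that group was not tested.

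**Figure D5:**
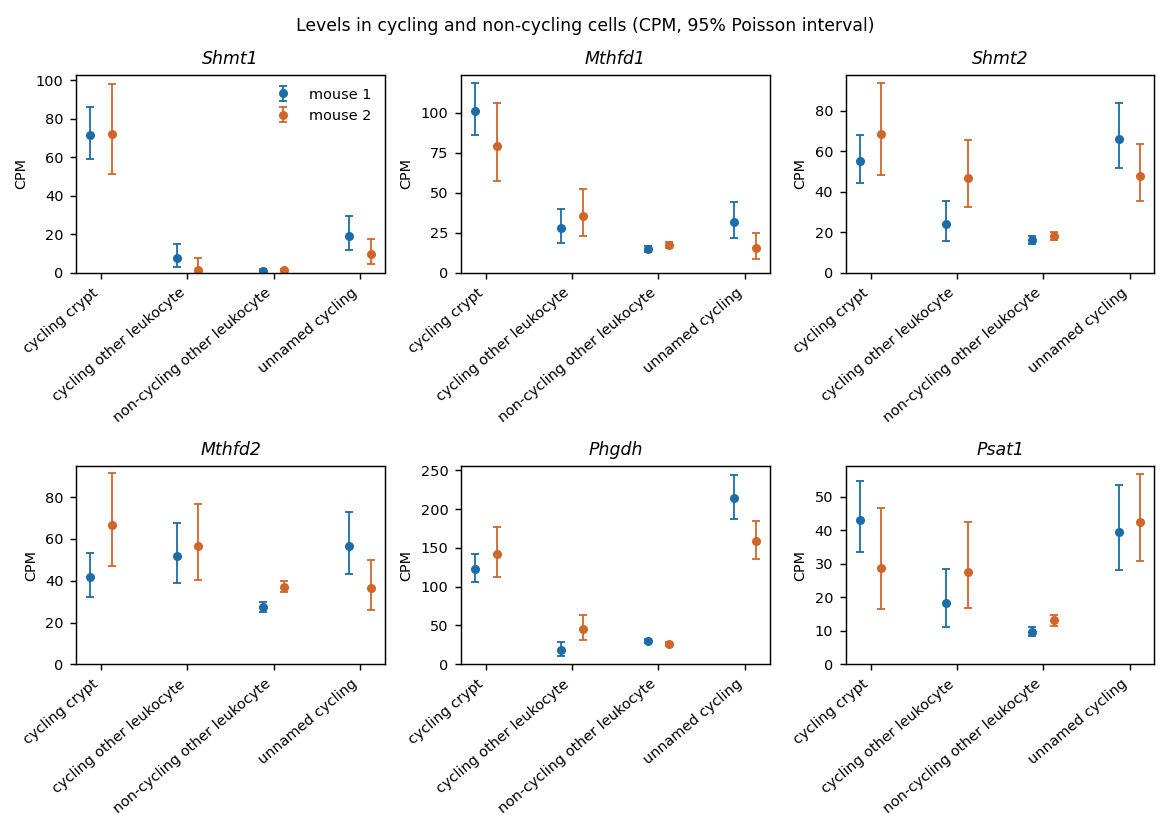
Level (vertical axis, CPM) of 6 of the genes in cycling crypt-like cells, cycling and non-cycling other leukocytes and the unnamed cycling cluster 18, with 1 point per mouse and exact Poisson 95% intervals. Shmt1 is at 71.6 and 71.9 CPM in crypt-like cells, whereas the points of Phgdh are highest in cluster 18 at 214 and 158 CPM. The latter lies inside the crypt-like interval of mouse 2.

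Phgdh also varied inside classes. Among plasma-like cells, cluster 8, led by Fkbp11, Mzb1 and Hsp90b1, genes of the secretory endoplasmic reticulum, had 95.9 and 81.5 CPM, above the 58.7 and 42.3 CPM of the larger cluster 1 in each mouse. This was not particular to Phgdh. Shmt2 had 26.4 and 25.6 CPM in cluster 8 against 16.0 and 14.4 CPM, and the other members were also higher there, except Shmt1 in mouse 2. Mki67 was seen in 36.6% of its cells against 15.1%. The part of division and of immunoglobulin content in these levels was not tested. Of the B-cell-like clusters, cluster 19 had 64.2 CPM in mouse 1, with a median of 24810 UMIs per cell and Epcam in 63.3% of its cells. Cluster 9 had a median of 3177 UMIs and Epcam in 6.21%. T/ILC-like clusters ran from 5.82 to 48.5 CPM and myeloid-like clusters from 1.33 to 48.1 CPM over both mice. Each lower end is a single UMI, in mouse 2, beside 15.3 and 9.13 CPM in the same clusters of mouse 1. The upper end in myeloid-like cells came from cluster 16, which was led by Siglech, a gene of plasmacytoid dendritic cells, with 48.1 and 26.1 CPM, and from cluster 14, which had 47.7 CPM in mouse 2 but 12.6 CPM in mouse 1.

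Cell by cell, Phgdh was seen in 70.4% and 72.4% of crypt-like cells, 63.5% and 55.2% of plasma-like cells and 2.59% and 1.45% of enterocyte-like cells. The cells differed in depth, with medians of 12025 and 18151 UMIs in crypt-like cells, of 22374 and 20212 in the plasma-like class and of 5222 and 3075 among enterocyte-like cells. When each cell was thinned to 1000 UMIs the shares were 11.2% and 11.5%, 6.34% and 4.79%, and 0.462% and 0.604%. Shmt1 was seen in 58.3% and 58.6% of crypt-like cells, 6.33% and 6.18% after thinning, against 1.04% and 0.328% of the deeper plasma-like cells. Slc46a1 was seen in 40.6% and 15.2% of enterocyte-like cells and in 0.222% and 0.0945% of T/ILC-like cells, whose median depth was 3232 and 2563 UMIs.

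Igkc, the light chain that plasma cells secrete, was seen in every class. If all Igkc in crypt-like cells were such RNA, it would bring 1.75 and 0.0552 CPM of Phgdh, where 126 and 142 CPM were measured, and 0.478 and 0.0184 CPM of Shmt2, where 53.7 and 68.3 CPM were measured. In B-cell-like cells, which make Igkc themselves, the same sum is 26.5 and 10.3 CPM of Phgdh against 49.6 and 37.3 CPM. For Slc46a1 the Fabp1 in crypt-like cells would carry 0.978 and 1.61 CPM from enterocytes, and the 1 UMI seen in crypt-like cells is at or below this background.

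Over the 12 sums of 6 classes and 2 mice, Pearson correlation of log2(CPM + 1) named the most similar of 13554 genes for each member. The 12 points share 2 libraries and differ in depth, and the values are a description. Shmt1 was most like Gtse1 (0.983), Recql4 (0.975) and Shisa2 (0.969), the first pair known from mitosis and DNA replication. Mthfd1 was most like Polr2h (0.994), Ran (0.992) and Bzw1 (0.989). Shmt2 was most like Mcph1 (0.943), Hist2h2bb (0.940) and Haspin (0.919), Mthfd2 like Racgap1 (0.976), G2e3 (0.958) and Atad5 (0.951), and Mthfd1l like Mdc1 (0.984), Ecd (0.976) and Ddx55 (0.975). Psat1 shared Racgap1 (0.980) with Mthfd2 and was also like Mcm2 (0.957) and Pfas (0.957). Psph was most like Cad (0.950), Pbx3 (0.932) and Ppat (0.931). Cad, Pfas and Ppat encode enzymes of nucleotide synthesis. Phgdh had weaker partners, Tceal9 (0.941), Lockd (0.912) and Impdh1 (0.910), and Slc46a1 was most like Tnfaip8l3 (0.980), Cyp4b1 (0.977) and Sar1b (0.976). Among the members themselves the closest pair was Psat1 with Mthfd2 (0.941), then Psph with Psat1 (0.874), and the most opposed was Slc46a1 with Phgdh (-0.863).

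Of 19 other folate genes, 15 were tested between classes. The counts of this and the next lists stand beside the shares of all genes called in the same comparison. In crypt-like against enterocyte-like cells 5 were higher and 3 lower (18.7% and 16.5% of all genes), with a median of 0.248. Ggh, which trims folate polyglutamates, fell from 484 and 134 CPM in enterocyte-like cells to 26.0 and 23.4 CPM in crypt-like cells (-3.81 ± 0.55), and Aldh1l1, which oxidises formyl-folate to carbon dioxide, from 35.2 and 72.2 CPM to 9.04 and 5.39 CPM (-2.83 ± 0.65). Against other leukocytes crypt-like cells had 7 higher and 3 lower (24.9% and 33.9% of all genes, median 0.668). Against plasma-like cells they had 6 higher and 2 lower (25.4% and 28.6% of all genes, median 0.458), among them Mthfd2l, the other mitochondrial dehydrogenase, at 22.6 and 36.0 CPM against 0.202 and 0.483 CPM (4.82 ± 0.49). Plasma-like cells against other leukocytes gave 1 higher and 2 lower (15.6% and 24.1% of all genes, median -0.296), and Mthfd2l was again among the lower ones, at -2.82 ± 0.45. Enterocyte-like cells against other leukocytes gave 3 higher and 5 lower (24.7% and 42.0% of all genes, median 0.329), with Aldh1l1 6.23 ± 0.63 higher and Mtr, methionine synthase, at -3.54 ± 0.42. By total UMIs this list had 12 higher and 0 lower in crypt-like against plasma-like cells (55.1% and 9.33% of all genes). Its median was 2.24 where that of all genes was 1.51. In plasma-like cells against other leukocytes 0 were higher and 14 lower (3.76% and 81.0% of all genes), with a median of -2.12 where that of all genes was -1.99.

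Of 18 other serine and glycine genes, 14 were tested. Beside the shares of all genes just given, crypt-like cells had 6 higher and 3 lower than enterocyte-like cells (median 0.367). They had 8 higher and 5 lower than other leukocytes (median 1.2). Against plasma-like cells they had 7 higher and 4 lower (median 0.156), which by total UMIs became 8 and 2 (median 1.92, where that of all genes was 1.51). Amt, a part of the glycine cleavage system that hands a carbon unit to folate, had 24 and 6 UMIs in crypt-like cells and 0 in enterocyte-like cells. That is 20.9-fold higher with a floor of 3 UMIs over the group with 0. Slc1a4, a serine carrier, had 5 and 2 UMIs against 0, 4.88-fold higher with the same floor. Such folds here and below leave out the counting error of the UMIs that were seen. Cbs, which draws serine into cysteine synthesis, was higher in crypt-like cells than in enterocyte-like cells (4.04 ± 1.34), other leukocytes (5.58 ± 1.06) and plasma-like cells (5.05 ± 1.14). Sdsl, a serine dehydratase-like enzyme, was an epithelial gene, at 52.0 and 30.6 CPM in crypt-like cells, 40.4 and 35.3 CPM in enterocyte-like cells and 0.291 and 0.0997 CPM in other leukocytes. Its log2 fold change over other leukocytes was 7.73 ± 0.56 in crypt-like and 7.72 ± 0.56 in enterocyte-like cells, and over plasma-like cells it was 6.98 ± 0.60 in crypt-like cells. Amt was 5.95 ± 0.63 higher in crypt-like cells than in other leukocytes.

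Enterocyte-like cells against other leukocytes had 6 of these genes higher and 3 lower (24.7% and 42.0% of all genes, median 1.11). Gcat, which splits a threonine product to glycine, was 3.41 ± 0.55 higher, and Slc1a5, a carrier of glutamine and serine, was at -4.72 ± 0.44 with 9 and 0 UMIs. In plasma-like cells against other leukocytes 5 were higher and 1 lower (15.6% and 24.1% of all genes, median 0.440), led by Slc1a4 at 4.46 ± 0.64. By total UMIs 1 was higher and 9 lower (3.76% and 81.0% of all genes), with Slc1a4 at 2.69. The median of the list was then -1.32 where that of all genes was -1.99.

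The third list held 16 genes known as targets of ATF4, the factor of the amino acid and endoplasmic reticulum stress responses that is also known to drive the serine enzymes, and 14 were tested. In plasma-like cells 9 were higher and 2 lower than in other leukocytes (15.6% and 24.1% of all genes, median 1.74). By total UMIs 4 were higher and 6 lower (3.76% and 81.0% of all genes), with a median of -0.0688 where that of all genes was -1.99. Pycr1, a proline enzyme, had 30.2 and 25.5 CPM there against 2.81 and 0.199 CPM (5.96 ± 0.83), and Asns, asparagine synthetase, 28.6 and 18.3 CPM against 3.59 and 1.30 CPM (5.06 ± 0.53). Slc7a11, the cystine carrier (-5.15 ± 0.74), and Cebpb (-1.60 ± 0.35) were the lower ones, and these 4 genes had the same direction by total UMIs. Crypt-like cells had 2 of the list higher and 7 lower than plasma-like cells (25.4% and 28.6% of all genes, median -1.70). Pycr1 was at -6.20 ± 1.21, Chac1 at -4.86 ± 1.69 and Slc3a2 at -4.71 ± 0.64. By total UMIs 6 were higher and 3 lower (55.1% and 9.33% of all genes), with a median of 0.0636 where that of all genes was 1.51. Chac1 was then at -3.09 (adjusted p = 0.160, edgeR). Crypt-like cells had 3 higher and 1 lower than enterocyte-like cells (18.7% and 16.5% of all genes, median 0.808), the lower one being Ddit3 at -3.93 ± 0.34. They had 4 higher and 4 lower than other leukocytes (24.9% and 33.9% of all genes, median 0.000938). Ddit3 was at -3.21 ± 0.33 there, and Slc7a11, at 0 UMIs in crypt-like cells, was 11-fold lower with a floor of 3 UMIs. Enterocyte-like cells against other leukocytes gave 4 higher and 4 lower (24.7% and 42.0% of all genes, median -1.03). Slc7a11, at 0 UMIs in enterocyte-like cells, was 23.0-fold lower with the same floor.

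In the cycling comparisons 12 of the folate, 11 of the serine and glycine and 12 of the ATF4 list genes were tested. Cycling other leukocytes had 4, 3 and 1 higher and 0, 0 and 1 lower than non-cycling ones (12.5% and 10.2% of all genes), with medians of 0.108, 0.133 and 0.00959. Tyms, thymidylate synthase, had 64.4 and 70.2 CPM against 10.6 and 11.2 CPM (2.75 ± 0.30). Gcat was 3.20 ± 0.56 higher, and Ddit3 was lower at -1.07 ± 0.28. Between cycling crypt-like cells and cycling other leukocytes the 3 lists had 4, 5 and 3 higher and 2, 4 and 4 lower (20.4% and 24.9% of all genes), with medians of 0.527, 0.620 and -0.0384. Sdsl (6.24 ± 0.86), Asns (5.24 ± 0.79) and Amt (4.35 ± 1.10) led the higher ones. Slc7a11, at 0 UMIs in cycling crypt-like cells, was 8.86-fold lower with a floor of 3 UMIs, and Slc3a2 (-2.43 ± 0.53) and Ddit3 (-2.28 ± 0.43) were lower too. All named genes of the 3 lists passed edgeR's quasi-likelihood test with Benjamini-Hochberg adjustment over all genes, and which of them is named follows from its fold change, so their sizes are a description.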

How the data were processed

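Cells of the proximal small intestine of 2 mice (group APC, replicates 1 and 2) were measured by droplet single-cell RNA-seq. The authors deposited raw counts of UMIs per gene and barcode, made with Cell Ranger 6.1.2 against mm10 per the labels. The genes and lists were chosen with earlier results of these data known. Cells were kept as the study describes and integrated in Seurat 5.3.0 (2000 variable genes without the 9 genes and their pathway, 30 dimensions, resolution 0.8). Epithelial cells were clustered again. A cluster took the name of the class with the most markers, if at least 3 were in 10% of its cells at a log2 fold of 1 or more. Epithelial names were barred where Ptprc was in 50% or more of the cells. A cluster stayed unnamed if another class led its top 10 genes, or if its UMI counts were low and none of these genes marked its class. These rules were written after the clusters were seen, names are therefore rebuilt, and other splits could differ from those of the study. The doublet caller of scanpy 1.11.5 marked 1 and 0 cells and so had not worked; an alternative removed the top 8% of scores (635 and 557 cells).

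For each mouse and class the counts were added up and tested in edgeR 4.0.16 (TMM, filterByExpr, quasi-likelihood, two-sided) under R 4.3.3, with Benjamini-Hochberg adjustment over all genes. SE is the size of the log2 fold change divided by the square root of F. edgeR raises p to a Poisson bound where needed, which touched 1 value of the 9 genes. Sums of the same mouse deviated together (correlations of 0.168 to 0.557 over all 6 pairs of classes, 12471 genes), and the pairing comes from the animal. The fit without the mouse as a block is the one reported, and the blocked value stands beside calls that it changed. Levels carry exact Poisson and shares exact Clopper-Pearson intervals (scipy 1.17.1, 95%). All 9 genes are named in each comparison; of the other lists, the 3 largest changes past the threshold in each direction, of which 2 are not reported here; of similarity, the 3 highest correlations. Alternatives were DESeq2 1.42.0, the mouse as a block, no filter, each replicate left out, only the compared classes, under 10% mitochondrial UMIs, resolutions 0.4 and 1.2, no integration, doublet scores, cycling by 2 or 5 genes and thinning to 2000 UMIs. Chosen after seeing the data were total UMI scaling, leaving out immunoglobulin genes, T or innate lymphoid cells alone, myeloid cells alone and joining cluster 18. The test was tried on simulated counts.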

Additional observations from a re-analysis of the deposited data

Results flagged for a closer look

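The following levels stand in cells outside the classes compared above (cluster 18 enters only an alternative), and each rests on more than 10 times a floor of 3 UMIs. Cluster 18, 84 dividing cells without a class name, led by Hist1h3c, Hmmr and Cenpf and with immunoglobulin at 28.8% and 24.7% of UMIs, had 186 CPM of Phgdh (388 UMIs), 57.1 CPM of Shmt2 (119), 47.5 CPM of Psph (99), 46.6 CPM of Mthfd2 (97), 40.8 CPM of Psat1 (85) and 23.5 CPM of Mthfd1 (49). As point values its Phgdh was above that of each named class in both mice. In mouse 2 it was 158 CPM (165 UMIs) against 142 CPM (79 UMIs) in crypt-like cells, inside the counting interval of the latter.

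Pancreatic-acinar-like cells, 177 in mouse 1 and 0 in mouse 2, had 85.9 CPM of Phgdh (139 UMIs) and 27.2 CPM of Mthfd2 (44). Of the unnamed epithelial sub-clusters, E7, led by Cck, Chgb and Reg4, had 75.4 CPM of Mthfd2 (70) and 34.5 CPM of Phgdh (32). E8, led by Ighv1-77, Gm36520 and Slc51b and with Ptprc in 72.2% of its cells, had 44.4 CPM of Phgdh (43). E6, led by Zg16 and with Ptprc in 95.3% of its cells, had 63.0 CPM of Slc46a1 (50), 81.0 CPM in mouse 1 (48) and 9.94 CPM in mouse 2 (2). Barcodes removed by the filters, mostly for mitochondrial UMIs, held 81.8 CPM (377 UMIs) and 139 CPM (450 UMIs) of the 9 genes together. No group had enough samples for a test of outlying samples.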

How the results depend on the processing

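Over all 7 comparisons, 903 of the single-gene values under alternatives counted as the same. These kept their side of the threshold, where a change of direction with no call in either fit was let pass. With a mouse left out, they moved by less than the SD of the 2 single-mouse values. That SD exceeds the distance of either mouse from their midpoint, so this limit is easily met and says little. Of the rest, 14 lost and 41 gained the threshold, 25 moved by at least that SD with a mouse left out and 7 reversed. The 7 reversed under total UMI scaling: Phgdh to 1.22 and Psph to 0.64 in crypt-like against plasma-like cells, and Shmt1 to -1.71, Shmt2 to -0.063, Mthfd2 to -1.40, Psph to -0.52 and Slc46a1 to -0.33 in plasma-like cells against other leukocytes; these follow the shift of the median of all genes that the scaling itself makes. In cycling against non-cycling other leukocytes the 2 genes past the threshold became 6 in DESeq2, 7 with cluster 18 joined, 1 with 5 cycling genes required, 1 under total UMI scaling and 0 with myeloid cells alone; the cause was not tested. In the other 6 comparisons the number of genes past the threshold stayed within 1.5 times that reported under every alternative run. With the mouse as a replicate block it was 9 for crypt-like against enterocyte-like cells, 7 against plasma-like cells and 6 against other leukocytes, 6 for plasma-like and 8 for enterocyte-like cells against other leukocytes, and 3 and 4 in the cycling comparisons; the block gave no other change of call than those printed beside the results. With 1 mouse left out each class is 1 sample, which leaves a value with no test: no called gene changed direction, and the largest gaps were from 0 UMIs in enterocyte-like cells of mouse 2 (against crypt-like cells, Mthfd1l went from 2.78 to 7.68 and Psat1 from 5.30 to 8.87 in that mouse alone, and against other leukocytes from -2.96 to -8.51 and from -3.62 to -7.66). Shmt1 was at 3.26 in mouse 1 and 5.67 in mouse 2 between cycling crypt-like cells and cycling other leukocytes. Crypt-like cells of mouse 2 (29 cells) limit the depth of every crypt value.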
